A study of Homo sapiens with 8 samples.

Results

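Nascent transcription of amino acid synthesis and transport genes was examined in senescent human fibroblasts. The set comprised 36 genes of the 27945 in the count table and was picked by gene symbol, with earlier results of these data known. It held 16 enzymes, 17 transporters or transporter subunits, and 3 genes of amino acid sensing and stress. Of these, 34 had enough counts to be tested. The 2 that did not were SLC7A8, an L-type transporter, and SLC16A10, an aromatic amino acid transporter, with at most 4 and 2 counts in any library.

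The cells were IMR90, a line of primary lung fibroblasts, carrying H-RASG12V fused to the estrogen receptor (ER:RAS), which is switched on by 4-hydroxytamoxifen (100 nM). The paper names day 6 for collecting cells to check RAS and senescence markers. No collection day was found for these libraries. The 4 groups of 2 libraries each were: control cells labelled wild type, senescent cells with a control hairpin RNA (shControl), and senescent cells with a hairpin against METTL3 (shMETTL3) or METTL14 (shMETTL14). METTL3 and METTL14 are the catalytic and the RNA-binding subunit of the enzyme complex that writes N6-methyladenosine on RNA. The labels name no hairpin for the control cells, so senescence and the presence of a hairpin cannot be told apart in that comparison. All groups grew in medium supplemented with glutamine and non-essential amino acids. The assay, fastGRO-seq, labels RNA that engaged polymerases extend in isolated nuclei, so a count reflects transcription across the gene body and not the amount of mature mRNA.

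Cells make serine from a glycolytic intermediate through PHGDH, PSAT1 and PSPH, and the serine carbon is passed to folate by SHMT2 and the other mitochondrial one-carbon enzymes. Essential and bulky amino acids enter through SLC7 light chains, several of which need the SLC3A2 heavy chain to reach the membrane, while SLC1 and SLC38 proteins take up glutamate, glutamine and small neutral amino acids. When amino acids run short, uncharged tRNA activates the kinase EIF2AK4 (GCN2), translation of the transcription factor ATF4 increases, and ATF4 induces many of these genes through C/EBP-ATF response elements. Senescent fibroblasts are known to stay metabolically active and to secrete large amounts of protein.

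Library totals ranged from 14897360 to 20306299 counts, of which 86.2 to 92.5% fell on 21 ribosomal RNA rows. The remaining 1513930 to 2048475 counts per library carried all other genes, and the 36 genes took 0.247 to 0.339% of them. METTL3 had 77 and 47 counts in senescent shControl and 16 and 19 in shMETTL3 libraries (log2 fold change −2.04 ± 0.31 SE, adjusted p = 1.8e-05). METTL14 had 24 and 28 counts in shControl and 18 and 14 in shMETTL14 libraries, a difference that missed the threshold (−0.86 ± 0.34, adjusted p = 0.076). It was already lower in shControl than in control cells (−0.76 ± 0.28, adjusted p = 0.0472). Nascent counts do not measure mature mRNA or protein, and the paper shows these knockdowns by western blot. All 12 fibroblast markers were present, with summed counts of 48680 to 51150 in control, 27606 to 30784 in shControl, 33362 to 35870 in shMETTL3 and 17679 to 20035 in shMETTL14 libraries. Epithelial, endothelial and leukocyte marker sums were 24 to 90, 16 to 133 and 17 to 67 counts. Fewer cells of a type and less RNA per cell cannot be told apart in bulk libraries. LMNB1, a nuclear lamina gene, had 83 and 83 counts in control, 11 and 15 in shControl, 2 and 0 in shMETTL3 and 5 and 2 in shMETTL14 libraries. The cell cycle inhibitor CDKN1A had 459 and 426 counts in control, 726 and 744 in shControl, 762 and 642 in shMETTL3 and 1817 and 1498 in shMETTL14 libraries. IL6, a secreted cytokine, had 7 and 17 counts in control, 203 and 179 in shControl, 37 and 49 in shMETTL3 and 136 and 95 in shMETTL14 libraries. CDKN2B, another cell cycle inhibitor, had 36 and 38, 141 and 141, 328 and 298, and 145 and 196 counts in the same order. The other 3 senescence markers read were CDKN2A, at 37 to 58 counts in the 8 libraries, CCNA2, at 14 and 23 in control and at most 10 elsewhere, and HMGB2, at 37 and 47 in control and at most 21 elsewhere. Summed counts over all 7, of which CDKN1A made up most, were 675 to 682 in control, 1147 to 1154 in shControl, 1051 to 1192 in shMETTL3 and 1838 to 2151 in shMETTL14 libraries, and the sum adds markers that went up to others that went down. The part of these marker differences in the results below was not tested.

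Levels of the 36 genes spanned a wide range. Normalized counts, which are counts scaled to the mean effective library size, were divided by the counted gene length to compare genes. In control cells the highest level was that of SLC38A2, a glutamine and alanine transporter, at 95.9 normalized counts per kb. STC2, which encodes a secreted stress glycoprotein, followed at 43.9 and SHMT2 at 16.4 normalized counts per kb. Among tested genes the lowest level in control cells was that of SLC1A3, a glutamate and aspartate transporter, at 0.0961 normalized counts per kb. After METTL14 knockdown DDIT4, a stress-induced inhibitor of mTORC1 signalling, stood second at 49.8, followed by CHAC1, an enzyme that degrades glutathione, at 24.4 normalized counts per kb. Neighbours in these orders were not compared with a test.

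**Figure D1:**
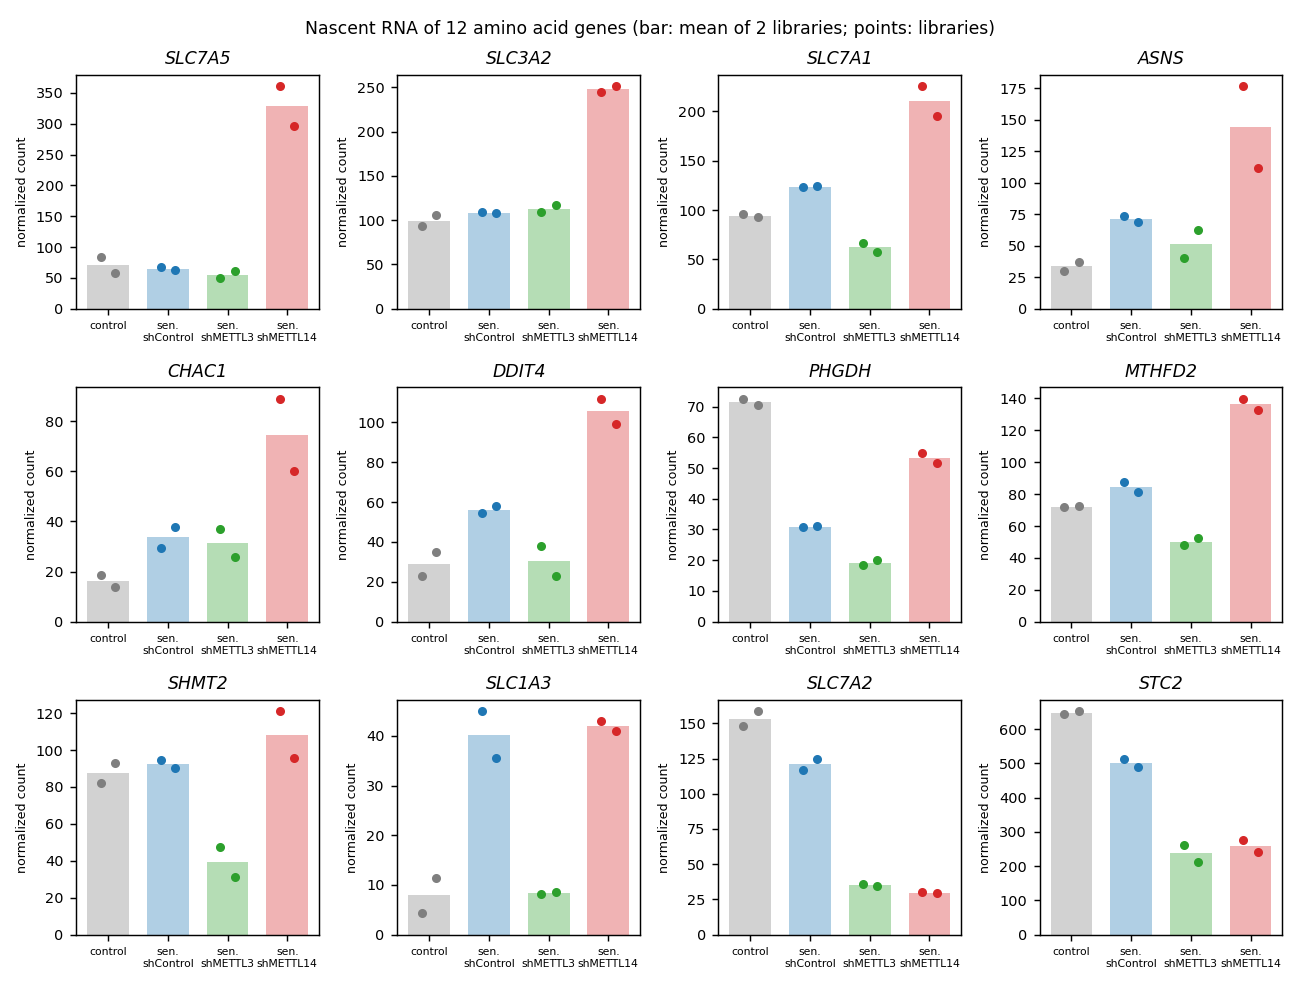
Normalized counts (y axis, from 0) of 12 genes in the 4 groups (x axis). Bars are means of 2 libraries and points are the libraries. SLC7A5 reached 362 and 296 in the shMETTL14 libraries and stayed at or below 84.1 in the other 6.

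Promoter sequences were searched for the C/EBP-ATF element because ATF4 is a known activator of many of these genes. The motif letters were TGATG, any base, then AA, read on both strands and the only motif searched, in RefSeq windows of 250 bases before to 50 bases after the annotated start (GRCh38.p14). A window was on hand for 29 of the 36 genes, and 8 of the 29 (27.6%) held the motif. By comparison 3.62% of all 35116 windows held it, as did 1.83% of the 9792 windows of genes tested here. The 8 matches are shown on the strand of the gene, 5′ to 3′, with the motif in capitals. CHAC1 and SLC3A2 carry it on the opposite strand and therefore show its reverse complement.
MTHFD1L, + strand, chr6:150866346-150866375: gccgccggctcTGATGCAAtcgcgccgggc
ASNS, − strand, chr7:97872458-97872487: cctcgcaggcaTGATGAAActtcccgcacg
CHAC1, + strand, chr15:40953251-40953280: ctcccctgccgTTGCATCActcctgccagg
BCAT1, − strand, chr12:24949131-24949160: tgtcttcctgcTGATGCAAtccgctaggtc
SLC7A1, − strand, chr13:29595663-29595692: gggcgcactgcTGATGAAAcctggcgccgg
SLC3A2, + strand, chr11:62881725-62881748: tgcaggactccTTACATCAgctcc
SLC1A3, + strand, chr5:36596357-36596386: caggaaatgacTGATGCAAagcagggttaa
SLC38A1, − strand, chr12:46266502-46266531: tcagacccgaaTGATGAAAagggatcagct

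The matches began between 220 bases before and 37 bases after the annotated start. A match is a run of letters and not a measured binding site, and no match says only that the letters are not in that window. Counted gene spans can begin at another start: the ASNS span in the count table covers 76445 bases. The windows lie on GRCh38 and the counted spans on hg19, and their starts were not matched gene by gene.

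The senescence comparison asked how RAS-induced senescence changed transcription of these genes. Most of them did not pass the test. In senescent shControl against control cells 4 rose, where 13.3% of all tested genes rose, and 5 fell, where 13.3% of all tested genes fell. The genes that rose were SLC1A3, ASNS (asparagine synthetase), CHAC1 and DDIT4, and those that fell were PHGDH, MTHFD1L, BCAT1, SLC6A6 and STC2. The median log2 fold change over the 34 genes was −0.19, beside −0.03 over all 12844 tested genes. Calls used edgeR's quasi-likelihood test with Benjamini-Hochberg adjustment over all tested genes and a threshold of 0.05.

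SLC1A3 showed the largest difference. It had 4.43 and 11.3 normalized counts in control and 44.9 and 35.6 in shControl libraries, with no overlap, and rose by 2.33 ± 0.41 on the log2 scale (5.03-fold, adjusted p = 7.02e-05). These levels rest on 5 and 13 raw counts in control cells, and the log2 difference was 1.82 without control replicate 1 and 3.15 without control replicate 2. ASNS had 30.1 and 37.4 normalized counts in control against 73.3 and 69 in shControl libraries (1.07 ± 0.27, adjusted p = 0.00415). Its reads are shared with CZ1P-ASNS, a readthrough row on the same strand that covers the whole of ASNS, so the reads of both rows cannot be told apart. CHAC1 (3048 bases) and DDIT4 (2117 bases), the shortest of the 36 genes, rose by 1.05 ± 0.35 and 0.95 ± 0.28 (adjusted p = 0.0281 and 0.0119), and at 0.82 and 0.67 neither passed with an offset for gene length. CTH, which makes cysteine from cystathionine, had 5.31 and 4.35 against 13 and 13.4 normalized counts, and its difference of 1.43 ± 0.56 missed the threshold (adjusted p = 0.0618).

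Of the 3 serine synthesis genes 1 passed the test. PHGDH, which catalyses the entry step, had 72.6 and 70.5 normalized counts in control and 30.7 and 31.2 in shControl libraries, with no overlap. It fell by 1.21 ± 0.26 on the log2 scale, to 0.433 of the control level (adjusted p = 0.000702). PSAT1, the next enzyme, had 60.2 and 64.4 against 41.4 and 42.3 normalized counts, a difference of −0.57 ± 0.26 that missed the threshold (adjusted p = 0.1). PSPH, the last enzyme, had 24.8 and 15.7 against 16.6 and 14.5 normalized counts, overlapping groups and no call (−0.38 ± 0.44, adjusted p = 0.569). MTHFD1L, a mitochondrial formate-producing enzyme, fell by 0.54 ± 0.15, while SHMT2 (0.07 ± 0.21) and MTHFD2 (0.23 ± 0.20) did not pass. BCAT1, the cytosolic branched-chain transaminase, had 592 and 635 against 431.5 and 432 normalized counts and fell by 0.51 ± 0.13. The taurine transporter gene SLC6A6 fell by 0.62 ± 0.20 (−0.35 and −0.94 without shControl replicate 1 or 2) and STC2 fell by 0.37 ± 0.14.

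Of the 34 tested genes, 9 had both shControl libraries above both control libraries and 14 had both below, beside 31.5% and 34.5% of all tested genes. The calls on PHGDH and SLC1A3 held under every alternative that tested them. SLC1A3 was not tested where at least 10 counts were asked of every library. Of the 18 alternatives, the call was lost in 9 for STC2, 8 for CHAC1, 7 for DDIT4, 4 for SLC6A6, 3 for BCAT1, 3 for MTHFD1L and 2 for ASNS. The count of genes that rose was 1 without control replicate 1 (8.65% of all genes tested in that fit) and 2 without shControl replicate 1 or 2 (7.82% and 9.74%). The count that fell was 3 and 2 without control replicate 1 or 2 (7.37% and 8.10%) and 1 and 2 without shControl replicate 1 or 2 (5.59% and 8.01%). DESeq2 called 2 higher and 3 lower, beside 6.16% and 4.39% of the genes to which it gave an adjusted p.

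METTL3 knockdown was compared within senescent cells. More of the genes fell than rose: 11 fell, where 11.2% of all tested genes fell, and 4 rose, where 12.2% rose. In either direction 15 of the 34 were called, beside 23.4% of all tested genes. The median was −0.22, beside −0.03 over all tested genes. The genes that fell included one-carbon, proline and arginine enzymes and 4 transporters, while those that rose were MTHFD1L, SLC38A1, SLC38A4 and EIF2AK4. Both shMETTL3 libraries lay below both shControl libraries for 17 of the 34 and above for 7, beside 30.6% and 27.8% of all tested genes.

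Among enzymes, SHMT2 had 94.6 and 90.1 normalized counts in shControl and 47.2 and 31.3 in shMETTL3 libraries. The groups did not overlap, and the gene fell by 1.24 ± 0.24 on the log2 scale (to 0.424 of shControl, adjusted p = 0.000302). MTHFD2, the next enzyme of the mitochondrial folate path, had 87.5 and 81.2 against 48.2 and 52.2 normalized counts and fell by 0.74 ± 0.21 (adjusted p = 0.0105). ARG2, the mitochondrial arginase, had 40.2 and 26.7 against 9.23 and 9.49 normalized counts and fell by 1.82 ± 0.40 (adjusted p = 0.00131). PYCR1, the last enzyme of proline synthesis, fell by 1.18 ± 0.43 and CBS, the first enzyme of transsulfuration, fell by 0.89 ± 0.32, each close to the threshold (adjusted p = 0.047 and 0.048). The call on PYCR1 was lost in 11 of the 17 alternatives that tested it and that on CBS in 16 of 18. PYCR1 had 19.5 and 6.65 normalized counts in the shMETTL3 libraries, and its difference was −2.13 without the first of them, −0.60 without the other and −0.72 without shControl replicate 1. CBS counts were identical to those of its annotated copy CBSL, so the source of these reads is uncertain. PHGDH and PSAT1 had differences of −0.68 ± 0.32 and −0.65 ± 0.29 that did not pass.

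The 4 transporters that fell were SLC1A3, SLC7A2, SLC7A1 and SLC1A5. SLC1A3 had 8.21 and 8.54 normalized counts in shMETTL3 libraries against 44.9 and 35.6 in shControl, and fell by 2.24 ± 0.41 (to 0.211 of shControl, adjusted p = 0.000214). This placed it within the range of the control libraries, with a difference from control of 0.08 ± 0.53 (adjusted p = 0.915). SLC7A2, a cationic amino acid transporter, had 117 and 125 against 35.9 and 34.2 normalized counts and fell by 1.78 ± 0.21 (adjusted p = 5.8e-07). SLC7A1, another cationic amino acid transporter, had 123 and 125 against 66.7 and 57.9 normalized counts and fell by 0.99 ± 0.19. The glutamine exchanger SLC1A5 fell by 0.76 ± 0.21, with shMETTL3 libraries far apart at 149.8 and 76.0 normalized counts and differences of −1.34 and −0.37 without the first or the other.

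In the other direction, SLC38A1, a glutamine importer, had 478 and 499 normalized counts in shControl and 764 and 762 in shMETTL3 libraries and rose by 0.64 ± 0.13 (adjusted p = 0.000605). EIF2AK4, the kinase that senses uncharged tRNA, had 210.4 and 189 against 272 and 338 normalized counts and rose by 0.61 ± 0.15. SLC38A4 and MTHFD1L passed at 0.99 ± 0.36 and 0.44 ± 0.15, but their calls were lost in 12 and 9 of the 18 alternatives, and without shMETTL3 replicate 2 the differences were 0.59 and 0.26. STC2 had 513 and 489 against 263 and 212 normalized counts and fell by 1.08 ± 0.14 (adjusted p = 3.39e-06), and DDIT4 fell by 0.89 ± 0.28 (−0.58 without shMETTL3 replicate 2). The heterodimer pair SLC7A5 and SLC3A2 gave −0.22 ± 0.23 and 0.06 ± 0.17, neither of which passed.

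**Figure D2:**
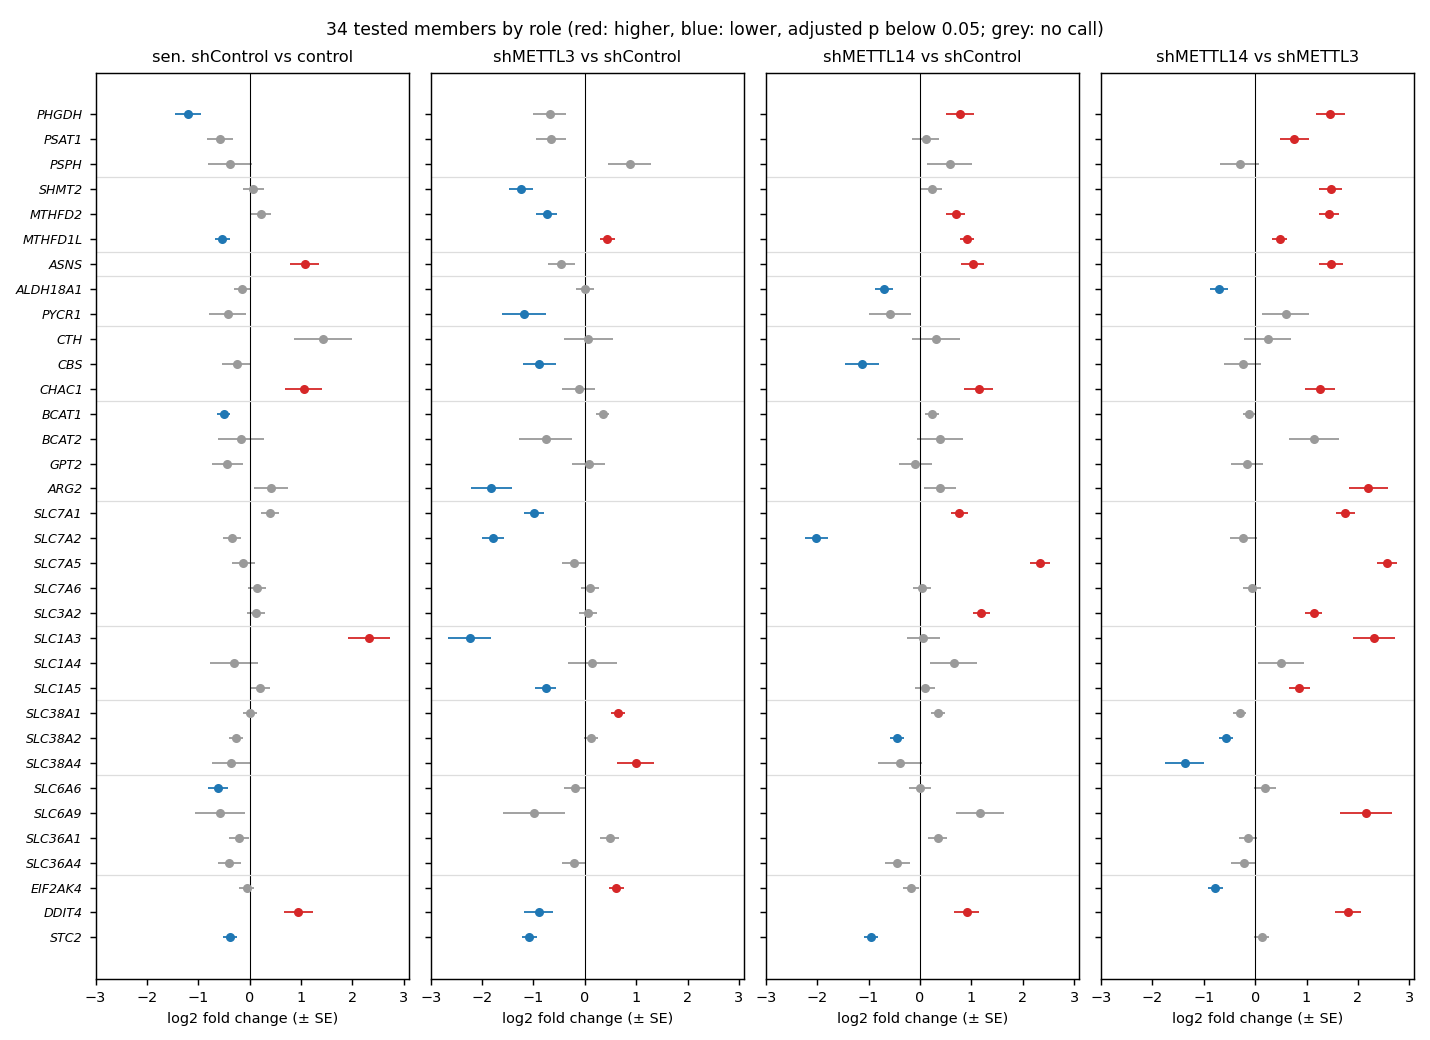
Log2 fold change (x axis) of the 34 tested genes (y axis, grouped by role, lines between roles) in 4 comparisons; points are edgeR estimates and bars are ± 1 SE. The shMETTL3 panel has 11 lower and 4 higher, beside 11.2% and 12.2% of all tested genes. The shMETTL14 against shMETTL3 panel has 15 higher and 4 lower, beside 16.5% and 18.7% of all tested genes.

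Fold changes after METTL3 knockdown moved with gene length over all tested genes. In 4 equal groups by length the medians were −0.30 for the shortest genes (0.07 to 13.5 kb), −0.16 and 0.01 for the middle groups and 0.26 for the longest genes (82 to 2321 kb). The 2 shMETTL3 libraries also differed from each other in this way, with a median log2 difference of replicate 2 from replicate 1 of −0.23 in the shortest and 0.13 in the longest genes. Several genes that fell are short, among them DDIT4 (2117 bases), PYCR1 (4853 bases) and SHMT2 (5362 bases), and the 4 that rose span 61236 (SLC38A4) to 235554 bases (MTHFD1L). With an offset for gene length, chosen after seeing the data, 7 genes fell instead of 11, beside 9.82% of all genes tested in that fit. Those that rose were SLC38A1 (0.51), EIF2AK4 (0.43) and, newly called, SLC36A1 (0.50), beside 9.63% of all genes. CBS (−0.73), DDIT4 (−0.49), MTHFD2 (−0.54), PYCR1 (−0.84), SLC38A4 (0.94) and MTHFD1L (0.09) lost their calls, while SHMT2 (−0.90), ARG2 (−1.73), SLC1A3 (−2.36), SLC7A1 (−1.12), SLC7A2 (−1.88), SLC1A5 (−0.54) and STC2 (−0.86) kept theirs.

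**Figure D3:**
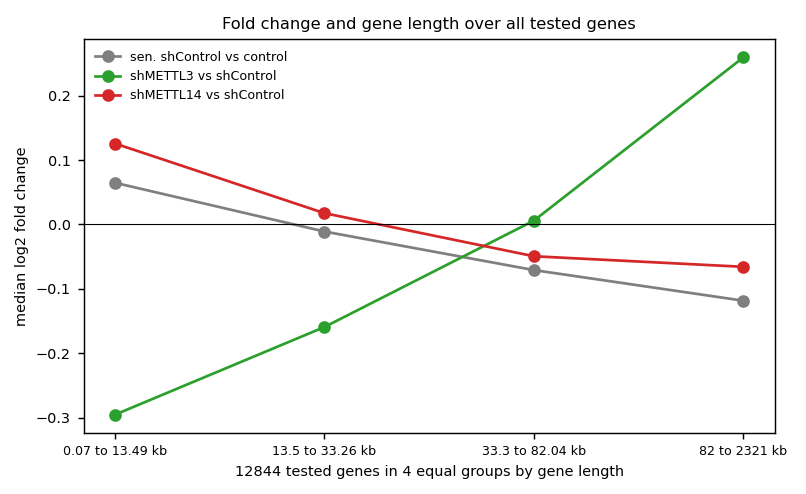
Median log2 fold change (y axis) of all 12844 tested genes in 4 equal groups by counted gene length (x axis, in kb), one line per comparison. The shMETTL3 line runs from −0.30 to 0.26, whereas the shMETTL14 line runs from 0.13 to −0.07.

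With library size alone as the scaling, the median of all genes in this comparison was 0.58 and the gene set gave 11 higher and 5 lower of 34, beside 41.1% and 2.75% of all tested genes. The count that fell was also 6 without shControl replicate 1 (6.25% of all genes tested in that fit) and 7 without shMETTL3 replicate 2 (7.89%). The count that rose was 2 without control replicate 1 or 2 (10.3% and 10.2%), 2 and 1 without shControl replicate 1 or 2 (6.51% and 5.64%) and 1 without shMETTL3 replicate 2 (8.25%). Of the 15 calls, 6 held under every alternative that tested them, those on ARG2, SHMT2, SLC1A3, SLC38A1, SLC7A2 and STC2. ARG2 and SLC1A3 were not tested where at least 10 counts were asked of every library. Calls were lost in 7 of the 18 alternatives for DDIT4, 5 for MTHFD2, 4 for SLC1A5, 2 for EIF2AK4 and 1 for SLC7A1.

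METTL14 knockdown was compared with the same shControl cells. In shMETTL14 against shControl cells 9 of the genes rose, where 9.15% of all tested genes rose, and 5 fell, where 12% fell. The median was 0.27, while over all tested genes it was 0.00. SLC7A5 and SLC3A2, the light and heavy chain of the leucine transporter LAT1, rose together with ASNS, CHAC1, DDIT4, SLC7A1, PHGDH, MTHFD2 and MTHFD1L. Those that fell were SLC7A2, CBS, STC2, ALDH18A1 and SLC38A2. Both shMETTL14 libraries were above both shControl libraries for 19 of the 34 genes and below for 10, beside 32.2% and 32.1% of all tested genes.

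SLC7A5 (chr16:87863622-87903105, hg19) had 67.4 and 62.3 normalized counts in shControl and 362 and 296 in shMETTL14 libraries, without overlap. It rose by 2.34 ± 0.19 on the log2 scale (5.07-fold, adjusted p = 1.12e-09). Its partner SLC3A2 (chr11:62623484-62656355, hg19) had 109 and 108 against 245 and 252 normalized counts and rose by 1.20 ± 0.16 (2.29-fold, adjusted p = 3.76e-06). SLC7A6, another light chain that pairs with SLC3A2, gave 112 and 148 against 133 and 136 normalized counts, overlapping groups and no call (0.04 ± 0.18). SLC7A1 had 123 and 125 against 226 and 195 normalized counts and rose by 0.76 ± 0.17 (adjusted p = 0.00131). Its relative SLC7A2 moved the other way, from 117 and 125 to 29.98 and 29.5 normalized counts, and fell by 2.02 ± 0.22 (to 0.247 of shControl, adjusted p = 1.18e-07).

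ASNS had 177 and 112 normalized counts in shMETTL14 libraries against 73.3 and 69 in shControl and rose by 1.02 ± 0.23 (adjusted p = 0.00183). CHAC1 had 89.0 and 60.0 against 29.6 and 37.8 normalized counts and rose by 1.14 ± 0.29 (adjusted p = 0.00541). DDIT4 had 112 and 99.0 against 54.4 and 57.9 normalized counts and rose by 0.91 ± 0.24. For each of these 3 genes shMETTL14 replicate 1 was the higher library and both were above shControl. In the serine and one-carbon steps, PHGDH had 55.0 and 51.6 normalized counts against 30.7 and 31.2 and passed at 0.78 ± 0.27 (adjusted p = 0.0388), but the call was lost in 9 of the 18 alternatives (adjusted p up to 0.244). MTHFD2 had 139.9 and 133 against 87.5 and 81.2 normalized counts and rose by 0.69 ± 0.18. MTHFD1L had 458 and 405 against 236 and 221.5 normalized counts and rose by 0.92 ± 0.15 (adjusted p = 3.53e-05). PSAT1, PSPH and SHMT2, in the same steps, gave 0.11 ± 0.27, 0.58 ± 0.44 and 0.23 ± 0.20 and no call.

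Neither gene of proline synthesis rose. ALDH18A1, which starts it from glutamate, had 126.5 and 123.5 normalized counts in shControl and 78.0 and 75.8 in shMETTL14 libraries and fell by 0.70 ± 0.18 (adjusted p = 0.00653), and PYCR1 gave −0.59 ± 0.40 without a call. CBS fell by 1.13 ± 0.34, STC2 by 0.95 ± 0.14 and SLC38A2 by 0.45 ± 0.14. SLC38A2 stayed the most highly transcribed of the 36 genes per kb, with 835 and 884 normalized counts in shMETTL14 against 1185 and 1160 in shControl libraries.

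Of the 8 genes with a C/EBP-ATF motif, 5 rose after METTL14 knockdown and none fell, beside 9.15% and 12% of all tested genes, with a median of 0.84. These were MTHFD1L, ASNS, CHAC1, SLC7A1 and SLC3A2, and SLC38A1, BCAT1 and SLC1A3 gave 0.35, 0.23 and 0.06 without a call. Among the 19 tested genes whose window lacked the motif, 4 rose and 4 fell, with a median of 0.11, and SLC7A5 and DDIT4 were among the 4 that rose. Of the 7 genes with no window on hand none rose and 1 fell, with a median of 0.01. After METTL3 knockdown 2 of the 8 rose and 2 fell, and of the 19 without the motif 2 rose and 6 fell, beside 12.2% and 11.2% of all tested genes. In senescence 3 of the 8 rose and 2 fell, and of the 19 without the motif 1 rose and 2 fell, beside 13.3% and 13.3% of all tested genes. The 7 without a window gave 0 higher and 3 lower after METTL3 knockdown and 0 and 1 in senescence.

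**Figure D4:**
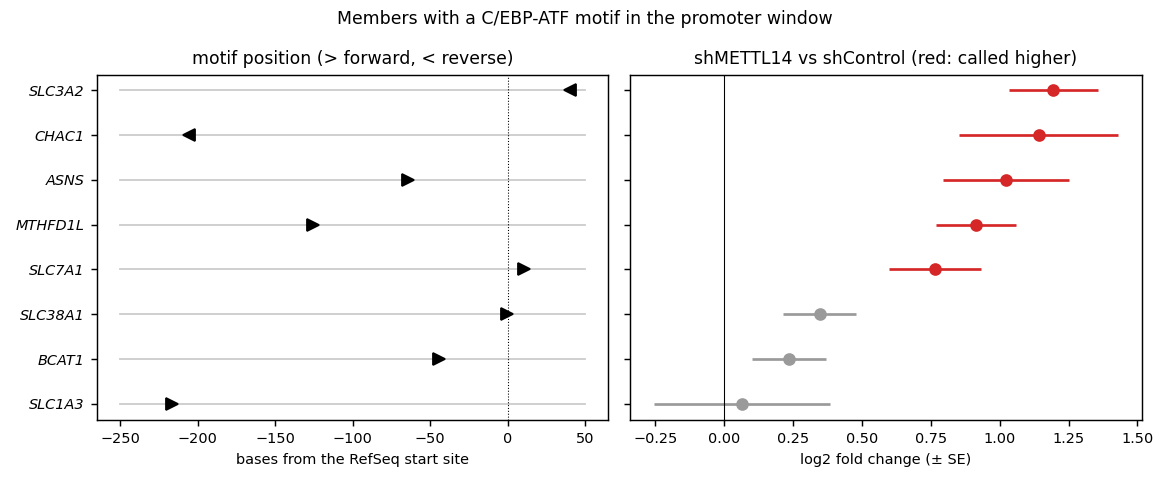
Left, position of the C/EBP-ATF motif relative to the RefSeq start site (x axis, bases; arrowheads give its strand) in the 8 genes that hold it; right, their log2 fold change in shMETTL14 against shControl (± SE). Positions run from −220 to beyond the start, and the 5 genes in red rose.

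Calls on SLC7A5, SLC3A2, MTHFD1L, SLC7A2 and STC2 held under every setting tried. Besides PHGDH, calls were lost in 6 of the 18 alternatives for CBS, 5 for SLC38A2, 4 for DDIT4, 3 each for ALDH18A1, CHAC1 and MTHFD2, and 1 each for ASNS and SLC7A1. Without shMETTL14 replicate 1 the count that rose was 3 (SLC7A5, SLC3A2 and MTHFD1L), beside 3.57% of all genes tested in that fit, with ASNS at 0.63, CHAC1 at 0.81, DDIT4 at 0.80 and SLC7A1 at 0.63, all short of the threshold. Leaving out the same library, shControl replicate 1 or shControl replicate 2 gave 3, 2 and 3 genes that fell (5.76%, 6.86% and 6.40%), and DESeq2 gave 5 higher and 3 lower, beside 2.77% and 4.94% of the genes to which it gave an adjusted p.

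The knockdowns were also compared directly, since each was set against the same shControl libraries and a call in one and not in the other is no test of a difference. In shMETTL14 against shMETTL3 cells 15 of the genes were higher, where 16.5% of all tested genes were higher, and 4 were lower, where 18.7% were lower. Together these 19 compare with 35.2% of all tested genes called in either direction. The median difference was 0.49, beside 0.01 over all tested genes. Both shMETTL14 libraries were above both shMETTL3 libraries for 18 genes and below for 7, beside 33.5% and 32.8% of all tested genes.

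Differences were present at several steps of the pathway. All 3 mitochondrial one-carbon enzymes were higher with METTL14 than with METTL3 knockdown: SHMT2 by 1.47 ± 0.23, MTHFD2 by 1.44 ± 0.19 and MTHFD1L by 0.48 ± 0.14 on the log2 scale. In serine synthesis PHGDH was higher by 1.47 ± 0.29 and PSAT1 by 0.76 ± 0.29, and PSPH gave −0.30 ± 0.38. ASNS was higher by 1.48 ± 0.24, CHAC1 by 1.26 ± 0.29, ARG2 by 2.20 ± 0.38 and DDIT4 by 1.80 ± 0.26. Among transporters the differences were 2.56 ± 0.19 for SLC7A5, 1.76 ± 0.18 for SLC7A1, 1.14 ± 0.16 for SLC3A2, 2.31 ± 0.41 for SLC1A3, 0.86 ± 0.20 for SLC1A5 (1.43 and 0.46 without shMETTL3 replicate 1 or 2) and 2.16 ± 0.51 for the glycine transporter SLC6A9. SLC6A9 rests on 4 and 7 raw counts in shMETTL3 and 27 and 21 in shMETTL14 libraries.

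The 4 lower genes were ALDH18A1 (−0.70 ± 0.18), SLC38A2 (−0.56 ± 0.14), SLC38A4 (−1.38 ± 0.37) and EIF2AK4 (−0.78 ± 0.15). For SLC7A2 and STC2, which fell under both knockdowns, the differences were −0.24 with a 95% interval of −0.77 to 0.30 and 0.13 with an interval of −0.18 to 0.43. For CBS, which also fell under both, it was −0.24 ± 0.36. Of the 19 calls, 15 held under every alternative that tested them, and the exceptions were PSAT1, MTHFD1L, CHAC1 and SLC38A4. Of the 15, ARG2, SLC1A3 and SLC6A9 were not tested where at least 10 counts were asked of every library. Gene length moved with this comparison too, with a median of 0.40 in the shortest and −0.34 in the longest genes, and 1 call, that on PSAT1, was lost with the length offset.

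Relative to control cells, which also differ from both knockdown groups in senescence, 4 genes were higher and 14 lower in shMETTL3 cells, beside 20.1% and 20.1% of all tested genes. In shMETTL14 cells 12 were higher and 8 lower, beside 19.7% and 20.5%. Both shMETTL3 libraries were above both control libraries for 9 genes and below for 17, beside 31.9% and 35.4% of all tested genes, and for shMETTL14 these numbers were 18 and 14, beside 35.8% and 36.5%. Of the 3 serine synthesis genes, PHGDH (−1.89 ± 0.27) and PSAT1 (−1.23 ± 0.27) were lower in shMETTL3 cells than in control, and PSPH gave 0.50 ± 0.38 without a call. In shMETTL14 cells the same 3 genes gave −0.42 ± 0.23, −0.47 ± 0.25 and 0.20 ± 0.40 and no call. ASNS and CHAC1 were 4.27-fold and 4.57-fold higher in shMETTL14 cells than in control. Without control replicate 1 the shMETTL3 counts were 1 higher and 8 lower, beside 14.3% and 13.6% of all genes tested in that fit, and without control replicate 2 the count higher was 2, beside 15.2%.

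Over senescence, METTL3 knockdown and METTL14 knockdown, 10 of the 34 genes were called in none, beside 51.8% of all tested genes. STC2 was called lower in all 3. DDIT4 was higher in senescence, lower with METTL3 knockdown and higher with METTL14 knockdown, and ASNS and CHAC1 were higher in senescence and higher again with METTL14 knockdown. PHGDH was lower in senescence and higher with METTL14 knockdown. These patterns rest partly on calls that other settings lost: of 18 alternatives, 9 for STC2 in senescence, 7, 7 and 4 for DDIT4 in the 3 comparisons, 8 and 3 for CHAC1 and 2 and 1 for ASNS in senescence and METTL14 knockdown, and 9 for PHGDH with METTL14 knockdown. The comparisons share the shControl libraries, so a high or low shControl value enters each of them.

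Neighbouring pathways were described by lists of other genes, read in the same fit. Of all tested genes, 13.3% rose and 13.3% fell in senescence, 12.2% and 11.2% with METTL3 knockdown and 9.15% and 12% with METTL14 knockdown, and no list was tested against these shares. The first held ATF4 and genes of the integrated stress response, of which 20 were tested. In senescence 6 rose and 1 fell, among them ATF3 (1.58 ± 0.34), a stress-induced transcription factor, and TRIB3 (1.02 ± 0.29), a pseudokinase induced by ATF4. After METTL3 knockdown 2 rose and 2 fell, and the 2 named were KLHL24 (1.13 ± 0.25) and SESN2 (0.71 ± 0.22). With METTL14 knockdown 6 rose and 1 fell, with SESN2, a leucine sensor, at 1.82 ± 0.20 and TRIB3 at 1.53 ± 0.23. ATF4 itself, named after its values were seen, had 76 and 92 raw counts in shControl, 109 and 67 in shMETTL3 and 143 and 120 in shMETTL14 libraries and was not called against shControl, although it was higher with METTL14 than with METTL3 knockdown (0.63 ± 0.21, adjusted p = 0.0211). The list medians were 0.25, −0.10 and 0.28 in the 3 comparisons.

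Cytosolic aminoacyl-tRNA synthetases, which charge tRNA with amino acids, were all tested (20 genes). In senescence 9 rose and 1 fell, with a median of 0.41, and TARS (1.10 ± 0.16) and EPRS (0.94 ± 0.13) rose most among those with at least 50 counts on average. After METTL3 knockdown none rose and 5 fell, with a median of −0.26. After METTL14 knockdown 2 rose and 3 fell, with a median of 0.05. EPRS fell by 0.74 ± 0.13 and LARS by 0.56 ± 0.16 with METTL3 knockdown, and by 1.00 ± 0.14 and 1.14 ± 0.17 with METTL14 knockdown.

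Of 20 tested amino acid transporters outside the gene set, 1 rose and 4 fell in senescence. The one that rose was SLC6A15, a transporter of branched-chain amino acids and proline, at 4.37 ± 0.19, and SLC1A2, a glutamate transporter, fell by 1.15 ± 0.23. After METTL3 knockdown 6 rose and 1 fell, including SLC1A2 (2.14 ± 0.22) and SLC7A11 (1.06 ± 0.18), the cystine importer. METTL14 knockdown gave 3 higher and 3 lower, with SLC38A9 at −0.73 ± 0.24 and SLC6A15 at −0.67 ± 0.15. Among 24 tested genes of amino acid sensing upstream of mTORC1, 2 rose and 7 fell in senescence, with a median of −0.30, and FNIP2 and DEPDC5 fell by 0.97 ± 0.18 and 0.83 ± 0.25. METTL3 knockdown gave 4 higher and 0 lower in this list, and METTL14 knockdown 4 higher and 1 lower. FNIP2, a partner of folliculin, rose with both knockdowns, by 1.11 ± 0.18 and 1.02 ± 0.18. SESN1 rose by 0.96 ± 0.28 with METTL3 knockdown and FNIP1 by 0.74 ± 0.13 with METTL14 knockdown.

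**Figure D5:**
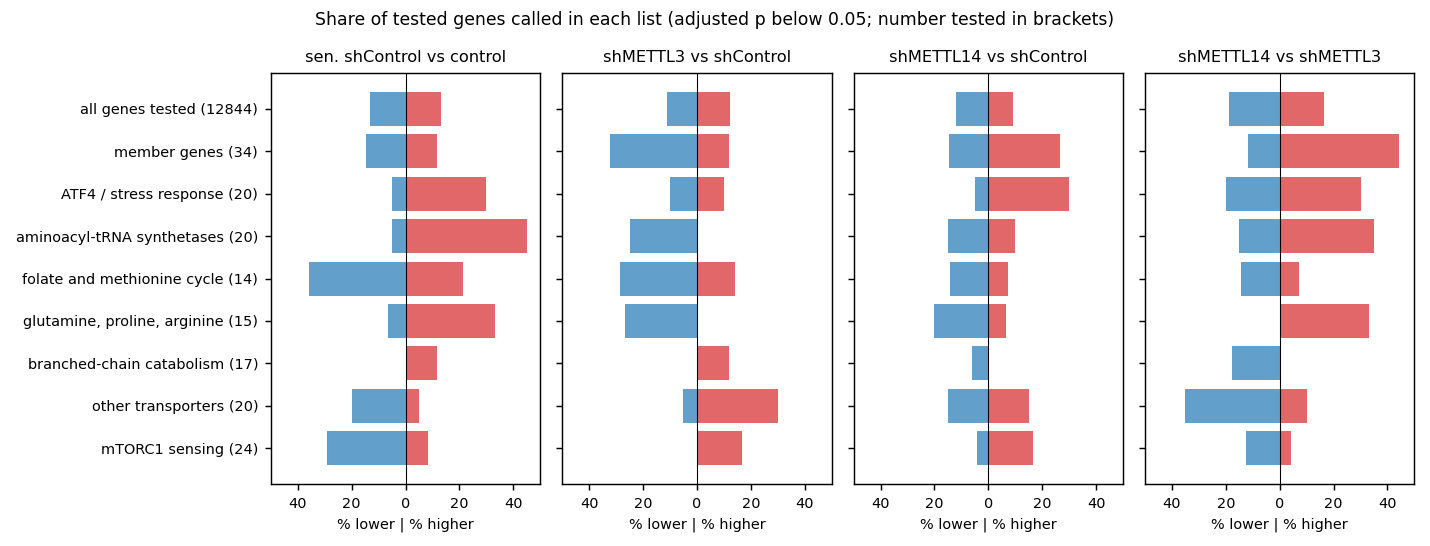
Percentage of tested genes called lower (left, blue) and higher (right, red) in each gene list, in 4 comparisons; the number tested is in brackets. On the lower side with METTL3 knockdown the set stands at 11 of 34, above the 11.2% of all tested genes. On the higher side with METTL14 knockdown it stands at 9 of 34, above 9.15%.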

How the data were processed

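FastGRO-seq libraries came from 8 samples in 4 groups of 2, grouped by the labels. The authors deposited raw counts per gene, made with HOMER (4.10) on hg19 over whole gene spans, with each gene condensed to 1 row; alignment used STAR. The header names strand-specific counting, yet in all but 1 of 61 tested nested pairs on opposite strands the outer gene held at least as many counts as the inner one. Whether reads of overlapping genes were separated by strand was not settled. The study added Drosophila nuclei as a spike-in, not used here, and a fold change therefore compares a gene with the rest of its library and not the amount per cell.

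All 36 genes, METTL3 and METTL14 are named, as are the 2 called genes of largest change per list and comparison with a mean of at least 50 counts. The genes and lists were chosen with earlier results of these data known.

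Counts were fitted in R (4.3.3) with edgeR (4.0.16): TMM, filterByExpr (minimum count 10), 12844 genes, all 8 libraries in 1 quasi-likelihood fit, Benjamini-Hochberg adjustment. The biological coefficient of variation was 10.6%. The labels name no cultures or dates for the libraries of a group. The study calls its 2 fastGRO-seq experiments on senescent and proliferating cells biologically independent. All p-values use a spread estimated jointly over the 4 groups, which for the knockdown groups may be technical. In genes with at least 20 counts per group, variance between replicates was 3.41 times sampling noise in shMETTL3. It was 1.38 to 1.67 times in the other groups, and the shared spread does not reflect this difference. DESeq2 (1.42.0), other scalings and filters, a replicate block, a length offset (lowess span 0.3) and leaving out each library were alternatives. The scripts were tested on simulated data.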

Additional observations from a re-analysis of the deposited data

Results flagged for a closer look

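The difference between the METTL14 and the METTL3 knockdown was itself tested for each gene in the edgeR fit, and 19 of the 34 genes passed at an adjusted p below 0.05, which is why they are listed here. Higher with METTL14 knockdown, in log2 units, were SLC7A5 (2.56), SLC1A3 (2.31), ARG2 (2.20), SLC6A9 (2.16), DDIT4 (1.80), SLC7A1 (1.76), ASNS (1.48), PHGDH (1.47), SHMT2 (1.47), MTHFD2 (1.44), CHAC1 (1.26), SLC3A2 (1.14), SLC1A5 (0.86), PSAT1 (0.76) and MTHFD1L (0.48). Lower were SLC38A4 (−1.38), EIF2AK4 (−0.78), ALDH18A1 (−0.70) and SLC38A2 (−0.56). Of all tested genes 35.2% passed the same test.

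In the separate comparisons, which share the shControl libraries, DDIT4 was at −0.89 with METTL3 and 0.91 with METTL14 knockdown, SLC7A1 at −0.99 and 0.76, and MTHFD2 at −0.74 and 0.69.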

How the results depend on the processing

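Precision is limited by the 2 libraries per group and the low counts of genes such as SLC1A3, CTH, SLC6A9 and BCAT2. Shares of all genes tested under the same setting follow each count in brackets. With adjusted p below 0.01, senescence gave 2 higher and 3 lower (9.49% and 8.14%), METTL3 knockdown 2 and 7 (7.51% and 6.14%), METTL14 knockdown 3 lower (7.36%), and shMETTL3 against control 2 and 9 (15.3% and 13.9%). DESeq2 gave 2 higher and 3 lower in senescence (6.16% and 4.39%), 2 and 7 of 30 genes with an adjusted p in METTL3 knockdown (5.44% and 3.96%), 5 and 3 in METTL14 knockdown (2.77% and 4.94%), 2 and 7 in shMETTL3 against control (9.91% and 7.19%), and 5 lower in shMETTL14 against control (8.68%). Fits of only the 2 groups compared gave 2 higher in METTL3 knockdown (10.9%) and 2 higher in shMETTL3 against control (18.9%). The length offset gave 2 higher in senescence (13.9%) and 7 lower in METTL3 knockdown (9.82%). With library size alone, which shifted the median of all genes by −0.53, 0.58 and 0.35 in the 3 comparisons, the counts were 1 higher and 17 lower (5.85% and 39.0%), 11 and 5 (41.1% and 2.75%), and 14 and 2 (24.6% and 5.53%), the medians of the set were −0.68, 0.40 and 0.63, and SLC38A1 turned to −0.48 in senescence. The cause of these changes was not tested, apart from that shift.

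Leaving out 1 library at a time gave 1 to 5 higher and 1 to 5 lower in senescence, 1 to 6 and 6 to 11 in METTL3 knockdown, 3 to 11 and 2 to 5 in METTL14 knockdown, and 12 to 15 and 3 to 4 between the knockdowns. In these 4 comparisons the shares of all genes ran from 7.82 to 15.9% higher and 5.59 to 15.9% lower, 5.64 to 14.2% and 5.30 to 15.1%, 3.57 to 12.2% and 5.76 to 14.3%, and 7.31 to 19.8% and 10.4 to 19.9%. Against control it gave 1 to 4 and 8 to 13 for shMETTL3 (14.3 to 21.3% and 13.6 to 22.6%) and 8 to 12 and 6 to 8 for shMETTL14 (13.3 to 22.7% and 12.8 to 22.9%). Set medians ranged from −0.17 to −0.11, −0.38 to −0.20 and 0.14 to 0.29. A lone library was assumed to vary like the other groups.

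The labels give same-numbered libraries nothing in common but the number. Over all tested genes their deviations from the group means correlated at −0.041 to 0.088, and a shared batch was not tested. The median log2 difference of replicate 2 from replicate 1 ran from −0.23 in the shortest to 0.13 in the longest genes in shMETTL3. It ran from −0.05 to 0.04 in control, −0.07 to 0.06 in shMETTL14 and 0.02 to −0.02 in shControl libraries. A replicate block gave the medians −0.18, −0.21 and 0.27 and changed 1 call, that on CBS in METTL3 knockdown (adjusted p = 0.0512).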

Other observations

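Enzymes of glutamine, glutamate, aspartate, proline and arginine metabolism outside the gene set were read in the same edgeR fit. Shares of all tested genes called higher and lower were 13.3% and 13.3% in senescence, 12.2% and 11.2% with METTL3 knockdown and 9.15% and 12% with METTL14 knockdown. Of 15 tested, 5 rose and 1 fell in senescence, with a median log2 fold change of 0.38. GFPT2, which uses glutamine to make hexosamine, rose by 3.60 ± 0.23, and ODC1, which turns ornithine into putrescine, rose by 2.26 ± 0.17. After METTL3 knockdown none rose and 4 fell, with ODC1 down by 1.90 ± 0.17 and OAT, which links ornithine to proline and glutamate, down by 1.43 ± 0.21. METTL14 knockdown gave 1 higher and 3 lower, and OAT fell by 0.85 ± 0.20 and ODC1 by 0.68 ± 0.15.

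In the folate and methionine cycles 14 further genes were tested. Senescence gave 3 higher and 5 lower, with MTHFD2L, a paralog of MTHFD2, at 1.83 ± 0.20 and ALDH1L2, a mitochondrial folate dehydrogenase, at −0.81 ± 0.24. METTL3 knockdown gave 2 higher and 4 lower, among them MTR, methionine synthase (0.59 ± 0.17), and MAT2A, which makes S-adenosylmethionine (−0.42 ± 0.15). METTL14 knockdown gave 1 higher and 2 lower, with MTR at −0.86 ± 0.19 and AHCY, which clears S-adenosylhomocysteine, at 0.74 ± 0.20. Of 17 branched-chain catabolism genes tested, 2 rose in senescence (DLD, 0.57 ± 0.20, was the one with enough counts to be named), 2 rose with METTL3 knockdown (PCCA, 1.18 ± 0.14, and HIBADH, 0.59 ± 0.18) and 1 fell with METTL14 knockdown. Counts of 2 and 2 of 17 are close to the 13.3% and 12.2% of all tested genes called higher. With METTL14 knockdown 1 of 17 stands beside 12% called lower. Counts this small cannot be told apart from those shares, and the list was not tested.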
